A study of Homo sapiens with 30 samples.

Results

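The genes described here are 50 genes of mitosis and the G2/M transition, chosen by symbol for their function, among 60554 gene identifiers counted in 5 human leukaemia cell lines, all of T-cell acute lymphoblastic type (T-ALL). All 50 passed the filter on low counts and are among the 15081 genes tested. The lines were Loucy, TALL-1, PEER, PER-117 and MOLT-16. Cells of each received decitabine at 1 µM for 48 h or the solvent dimethyl sulfoxide (DMSO), with 3 libraries per line and treatment and 30 in all. No genotype or further treatment is given in the labels, and no untreated normal T cell is among the groups. Decitabine is a cytidine analogue that is built into DNA during S phase and traps DNA methyltransferases there. The libraries sequence the 3′ ends of polyadenylated RNA, so gene length does not enter a count, and levels are compared between samples of 1 gene, not between genes. Levels are in CPM, the reads of a gene per 1 M gene reads, and changes are log2 ratios of decitabine to DMSO with their standard error (SE).

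Entry into mitosis is driven by cyclin-dependent kinase 1 with its B-type cyclins, helped by CDC25 phosphatases and Polo-like kinase 1. The spindle checkpoint then holds the anaphase-promoting complex in check until every kinetochore is attached, after which CDC20 activates the complex, cyclin B and securin are destroyed and the sister chromatids part. Motor proteins and the chromosomal passenger complex build the spindle and its midzone and complete cytokinesis. Transcripts of these genes peak in G2 and mitosis in cycling cells. Their promoters often hold a cell cycle genes homology region (CHR), bound by the MuvB complex together with B-MYB and FOXM1, and CCAAT boxes bound by NF-Y, while in quiescence the MuvB-containing DREAM complex represses them.

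The stretches below are shown because they hold these elements in 6 genes that passed the test in TALL-1, Loucy or both. They are the 120 bases before the annotated start of transcription, 5′ to 3′ on the gene's strand, from RefSeq on GRCh38.p14, with matches to TTTGAA or TTCGAA (CHR letters) and to CCAAT in capitals on either strand (ATTGG in KIF4A is CCAAT on the other strand). The CENPA stretch held TTTGAA and no CCAAT. CENPE, whose change differed most between TALL-1 and Loucy, is shown because it held none of these 3 runs of letters in this stretch. Other forms of these elements were not searched for.
CDC20: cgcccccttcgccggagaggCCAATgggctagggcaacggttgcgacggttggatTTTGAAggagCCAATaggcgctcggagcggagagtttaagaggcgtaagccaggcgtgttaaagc
PLK1: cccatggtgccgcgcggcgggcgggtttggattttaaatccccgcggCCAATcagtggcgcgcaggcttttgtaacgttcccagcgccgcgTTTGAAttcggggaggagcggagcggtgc
CCNB2: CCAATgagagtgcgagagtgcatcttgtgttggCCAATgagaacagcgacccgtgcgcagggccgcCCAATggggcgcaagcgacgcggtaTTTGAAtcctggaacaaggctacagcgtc
CENPA: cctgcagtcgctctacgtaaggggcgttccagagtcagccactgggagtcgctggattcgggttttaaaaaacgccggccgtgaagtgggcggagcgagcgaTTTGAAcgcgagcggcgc
PSRC1: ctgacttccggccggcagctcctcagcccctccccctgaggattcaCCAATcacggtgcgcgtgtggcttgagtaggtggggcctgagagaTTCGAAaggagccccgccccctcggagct
KIF4A: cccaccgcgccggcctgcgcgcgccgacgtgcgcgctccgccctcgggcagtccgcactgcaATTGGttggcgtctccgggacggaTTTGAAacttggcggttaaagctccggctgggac
CENPE: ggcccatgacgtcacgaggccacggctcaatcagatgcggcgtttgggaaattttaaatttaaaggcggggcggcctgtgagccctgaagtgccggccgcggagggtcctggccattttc

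Their positions are CDC20 chr1:43358861-43358980 (+ strand), PLK1 chr16:23678769-23678888 (+ strand), CCNB2 chr15:59105026-59105145 (+ strand), CENPA chr2:26785936-26786055 (+ strand), PSRC1 chr1:109283146-109283265 (- strand), KIF4A chrX:70289984-70290103 (+ strand) and CENPE chr4:103198344-103198463 (- strand). The starts used here are those of RefSeq, while the gene positions given below are spans of GENCODE 29. The PLK1 stretch lies inside its span, and the CDC20, KIF4A and CENPE stretches lie partly inside theirs. A promoter of 300 bases, from 250 before to 50 after the start, was on hand for 43 of the 50 genes and not for FOXM1, BUB3, TTK, UBE2C, BIRC5, AURKA and TPX2. TTTGAA on either strand was found in 30 of the 43 genes (69.8%), against 18.2% of 27305 genes of all kinds. TTCGAA was found in 5 (11.6%, against 1.82%) and either of them in 34 (79.1%, against 19.5%). CCAAT on either strand was found in 37 (86.0%, against 39.7%), and CHR letters and CCAAT were both found in 30 (69.8%, against 9.02%). Matches overlapped each other in 4 pairs, and 7 of the genes had more than 1 promoter, each of which was searched. A match is a run of letters and not a shown site of binding. Only these letters were searched, so a promoter without a match is not shown to lack the element.

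Depth was 2.20 M to 15.4 M reads in genes per library. Of 13 T-cell genes, CD3D, CD3E, CD3G, CD247, CD7, LCK, ZAP70 and BCL11B were read in all 30 libraries. CD2 was too, but stood below 1 CPM with DMSO in Loucy and PER-117 (means 0.744 and 0.186 CPM). CD5 was read in 29 and stood below 1 CPM with DMSO in PER-117 (0.214 CPM). CD4, CD8A and CD8B were read in 24, 29 and 17 libraries. With DMSO their means were 0.0958, 0.165 and 0 CPM in Loucy and 0.0307, 0.0941 and 0 CPM in PER-117. The summed level of 4 erythroid genes reached at most 1.78 CPM and of 5 myeloid genes at most 14.6 CPM outside the Loucy decitabine libraries (44.7 to 45.6 CPM, against 11.7 to 14.6 CPM with DMSO), and the part of this difference in the Loucy results was not tested. Summed over 5 B-cell genes the level reached 108 CPM in Loucy (69.1 to 104 CPM with DMSO and 102 to 108 CPM with decitabine) and at most 53.1 CPM in the other lines, and over 5 epithelial and stromal genes at most 15.4 CPM, in PEER with decitabine (2.21 to 3.74 CPM with DMSO). The sum of 13 T-cell genes was lower with decitabine without overlap in all 5 lines, among them TALL-1 (2724 to 2847 CPM with DMSO and 2103 to 2250 CPM with decitabine) and Loucy (1336 to 1454 CPM and 1248 to 1302 CPM). The part of these differences in the results was not tested either. In 3 DMSO libraries, genes restricted to another line were read at more than background. TALL-1 DMSO replicate 3 held the 11 genes restricted to PEER at a median of 14.1% of their PEER level, MOLT-16 DMSO replicate 3 at 19.6%, and PEER DMSO replicate 2 held the 8 genes restricted to MOLT-16 at 5.65%. In the other 12 DMSO libraries the highest such share was 0.462%. Among the 15 decitabine libraries it was 3.18%, in TALL-1 decitabine replicate 2, where all 8 genes restricted to MOLT-16 were read. No other decitabine library was above 0.813%. How these transcripts came to be there was not tested, and the 3 DMSO libraries are called the mixed DMSO libraries below. A further library stood apart in the genes described here. TALL-1 DMSO replicate 2 was the lowest of the 3 TALL-1 DMSO libraries for 48 of the 50 genes. The same count was not made over all genes. Counts of the 50 genes called in each line, and for the difference between TALL-1 and Loucy, are given with and without the 3 mixed DMSO libraries. For TALL-1 and that difference they are also given without TALL-1 DMSO replicate 2 and without decitabine replicate 2. Counts among the DMSO groups, among the 5 lines and with lines as replicates are given with all libraries only.

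Summed over the 50 genes, the direction of the difference depended on the line. The sum was 8534, 5483 and 8037 CPM in TALL-1 with DMSO and 11030.0, 9912 and 10609.8 CPM with decitabine, so that all 3 treated libraries lay above all 3 controls. In Loucy it was 7113, 6857 and 7149 CPM with DMSO and 5368, 5502 and 5407 CPM with decitabine, with no overlap in the other direction. It was also without overlap in PEER, at 7273 to 7948 CPM with DMSO and 6057 to 6156 CPM with decitabine, and in PER-117, at 6999 to 7170 CPM and 7473 to 8186 CPM. In MOLT-16 the ranges overlapped, at 7567 to 8446 CPM and 6375 to 7687 CPM. A lower sum can mean fewer cells in G2 and mitosis or less of these transcripts per cell, which cannot be told apart in bulk RNA.

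**Figure D1:**
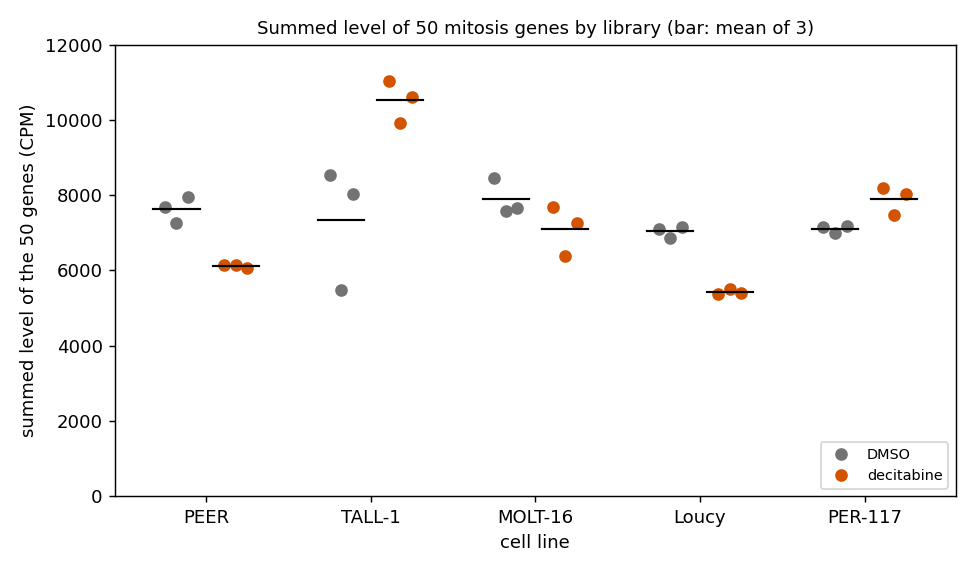
Summed level of the 50 mitosis and G2/M genes (CPM, vertical axis) in each of the 30 libraries by cell line (horizontal axis), grey for DMSO and orange for decitabine, with a bar at the mean of 3 libraries. Decitabine libraries lay above the controls in TALL-1 and PER-117, below them in PEER and Loucy, and overlapped them in MOLT-16, and TALL-1 DMSO replicate 2 lay lowest of the TALL-1 libraries at 5483 CPM.

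With DMSO alone the lines differed in these genes about as often as in all genes. The 5 DMSO groups differed in 43 of the 50 genes by edgeR's quasi-likelihood test, against 91.6% of all genes tested. The exceptions were CENPE, SGO1, TOP2A, KIF11, DLGAP5, KIF23 and KIF14. The mean of the highest line was a median of 1.74 times that of the lowest, from 1.21 times for TOP2A to 3.07 times for KIF20A, a motor of the central spindle. PEER held the highest mean for 15 genes, MOLT-16 for 12, Loucy and PER-117 for 8 each and TALL-1 for 7. TTK, the kinase that starts the spindle checkpoint, stood at 93.6, 68.6 and 78.2 CPM in TALL-1 and at 23.2, 23.4 and 31.9 CPM in PER-117, the lines with its highest and lowest means. CCNB1, cyclin B1, stood at 160.0, 244 and 187 CPM in PEER and 76.2, 43.0 and 83.1 CPM in TALL-1, again the highest and the lowest line, with no overlap in either gene.

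With decitabine, more of the 50 genes rose than fell in TALL-1, and in Loucy those that passed the test fell. In TALL-1, 22 of the 50 genes rose and 1 fell (SPC25), against 6.74% and 6.12% of all genes tested, and the median log2 change was 0.47, against 0.00 over all genes. Without TALL-1 DMSO replicate 2 that median was 0.30. In Loucy 15 fell, against 4.13% of all genes, with a median of -0.36, against 0.03. None rose there by edgeR (10.6% of all genes), by DESeq2 or at an unadjusted p under 0.05, a count of 0 in each. In 32 genes all 3 TALL-1 decitabine libraries lay above all 3 DMSO libraries (15.5% of all genes tested) and in 2, BUB3 and SPC25, below them (14.1%). In Loucy 32 lay below (15.7%) and 0 above (23.4%). The log2 change was above 0 in TALL-1 and below 0 in Loucy for 46 genes, and below 0 in both for BUB1, BUB3, ESPL1 and SPC25. These p-values measure only the spread between the libraries of a group, which may be technical, since the labels do not say that they are separate cultures.

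The difference between the responses was itself tested. It was called in 31 of the 50 genes, each with the higher change in TALL-1, against 3.46% of all genes with a higher and 4.71% with a lower change there, and the median difference was 0.89 (log2), against -0.07 over all genes. Without TALL-1 DMSO replicate 2, 13 genes rose in TALL-1, 1 fell, and the difference from Loucy was called in 24. Without TALL-1 decitabine replicate 2 these counts were 19, 1 and 28. Over all genes, 806 rose and 822 fell in TALL-1 in the first of these fits and 804 and 618 in the second. With all libraries 1017 rose and 923 fell. Without the 3 mixed DMSO libraries, 29 rose and 1 fell in TALL-1, 22 fell in Loucy, where the libraries are the same and the shared estimate of spread differs, and the difference was called in 37. Over 15741 genes tested in that fit, 1174 rose and 1022 fell in TALL-1, and 1259 fell in Loucy. Its TALL-1 controls were DMSO replicates 1 and 2 alone, so the low replicate 2 weighs more, and the TALL-1 median was 0.58. The genes called in that fit and not with all libraries were CDCA3, ECT2, GTSE1, KIF14, KIF23, PRC1 and TOP2A in TALL-1 and BIRC5, BUB1, BUB1B, HMMR, MAD2L1, NDC80 and TOP2A in Loucy. In Loucy the count of falls was 6 without decitabine replicate 1, 8 without decitabine replicate 3 and 8 without DMSO replicate 3. Over all genes the falls in these fits were 287, 315 and 399, against 623 with all libraries. Scaling to total counts moved the median of all genes in Loucy up by 0.11 and left 4 falls, CCNA2, CKS2, CENPE and CENPF. It also put CDC25B, CDC25C and UBE2C above 0 in Loucy (log2 0.02, 0.05 and 0.03) and BUB1 above 0 in TALL-1 (0.03), none of which was called on either scale. BUB1 stood above 0 in TALL-1 without the mixed libraries too (0.06, not called). The set was chosen with earlier results of these data known, so its opposite direction in these lines is not independent evidence.

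**Figure D2:**
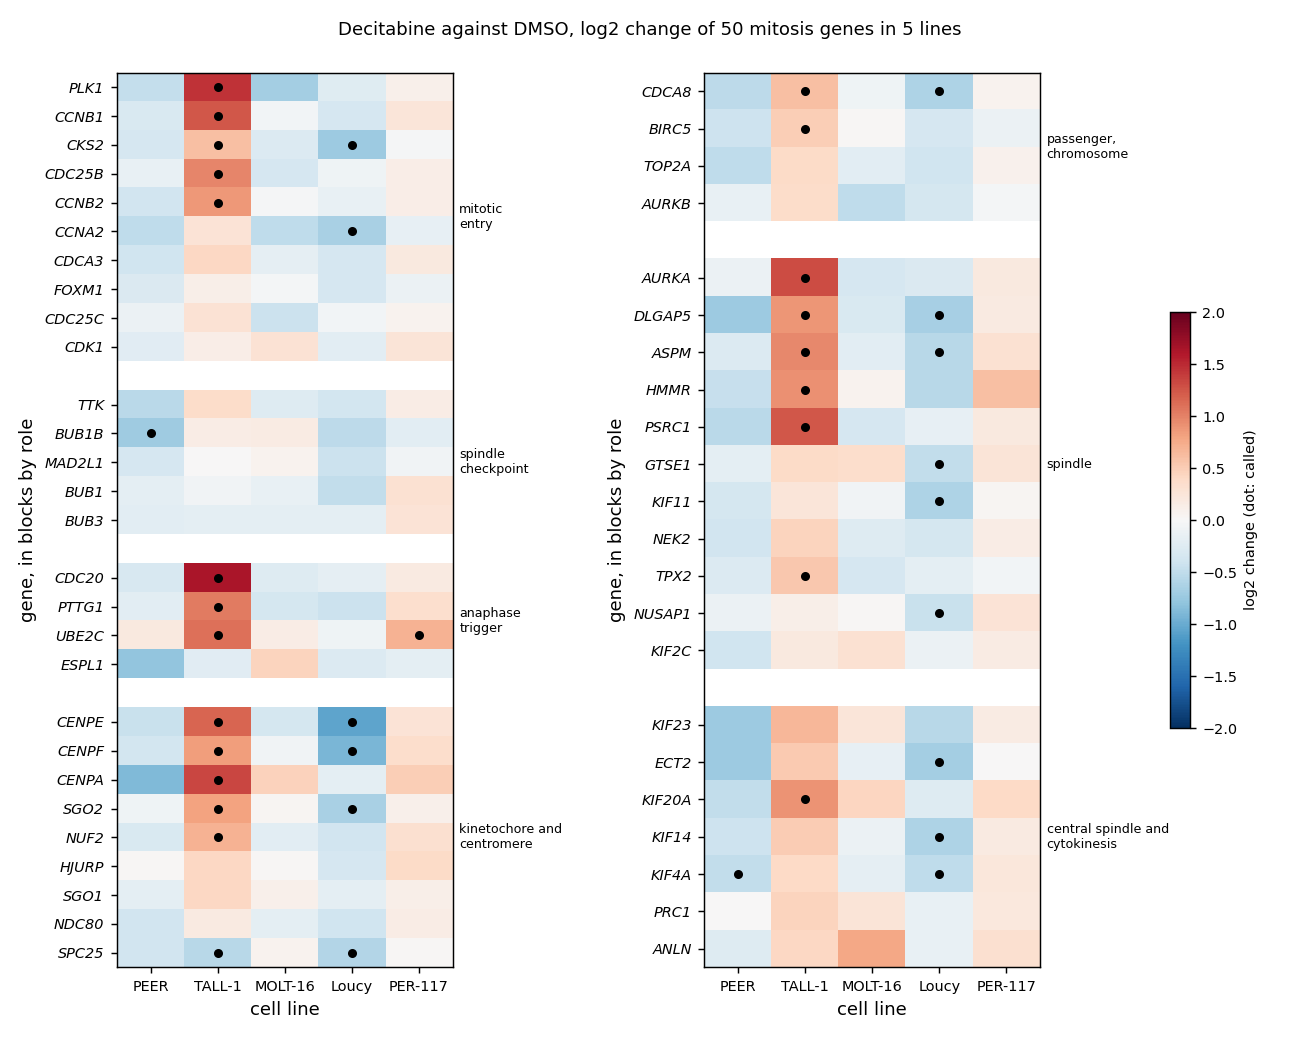
Log2 change with decitabine (colour) of each of the 50 genes (vertical axis, in blocks by role) in each of the 5 cell lines (horizontal axis), where a dot marks an adjusted p under 0.05 by edgeR. Dots mark rises in TALL-1 (22 genes) and PER-117 (UBE2C), and falls in Loucy (15 genes), PEER (BUB1B and KIF4A) and TALL-1 (SPC25).

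**Figure D3:**
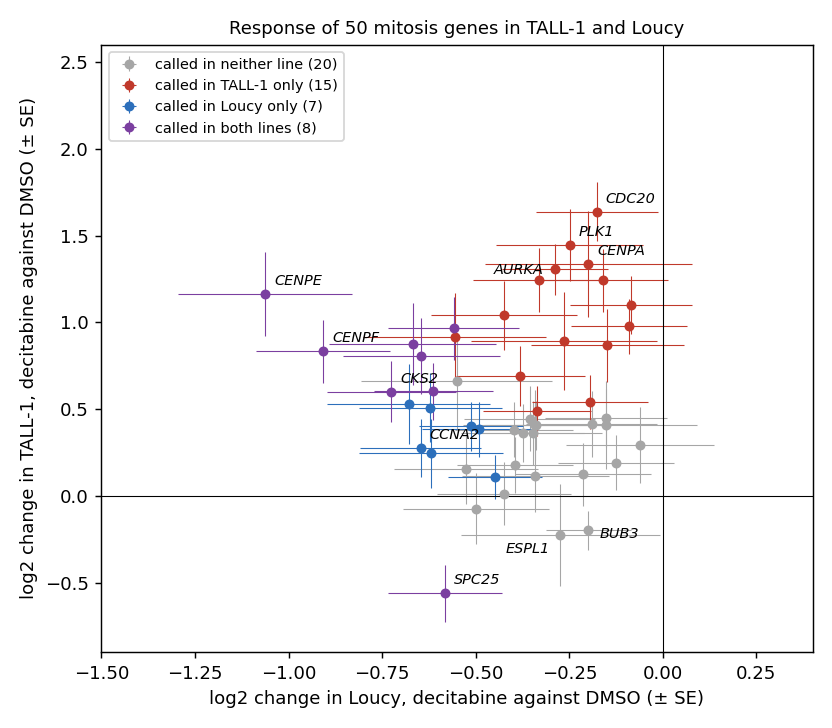
Log2 change in TALL-1 (vertical axis) against log2 change in Loucy (horizontal axis) for the 50 genes, each with bars of 1 SE, coloured by whether the change was called in both lines (8), in TALL-1 (15), in Loucy (7) or in neither (20). All points lie left of 0 on the Loucy axis and 46 lie above 0 on the TALL-1 axis, with CENPE at the left end and SPC25 at the bottom.

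Among 10 genes of mitotic entry, 5 rose in TALL-1 and 2 fell in Loucy. PLK1, Polo-like kinase 1 (chromosome 16, 23677656 to 23690367, + strand), stood in TALL-1 at 60.9, 25.6 and 57.1 CPM with DMSO and 148, 110.0 and 136 CPM with decitabine. All treated libraries lay above all controls (log2 1.45, SE 0.21, adjusted p = 1.85e-05). The Loucy libraries held it at 71.5, 72.2 and 59.3 CPM with DMSO and 66.5, 57.9 and 46.4 CPM with decitabine, with overlapping groups (log2 -0.25, SE 0.20, adjusted p = 0.447). CCNB1 (chromosome 5, 69167010 to 69178245, + strand), the cyclin that activates CDK1 at mitosis, stood at 76.2, 43.0 and 83.1 CPM with DMSO and 158, 162 and 161 CPM with decitabine in TALL-1, again without overlap (log2 1.24, SE 0.18, adjusted p = 2.74e-05). In Loucy CCNB1 stood at 91.1, 104 and 101 CPM with DMSO and 82.2, 81.3 and 71.7 CPM with decitabine, lower in every treated library and not called (log2 -0.33, SE 0.18, adjusted p = 0.223). CKS2, a small subunit of cyclin-dependent kinases, was the member of this group that passed in both lines. It stood at 86.7, 47.7 and 78.2 CPM with DMSO and 110.1, 109 and 104 CPM with decitabine in TALL-1 (log2 0.60, SE 0.18, adjusted p = 0.0224) and at 56.3, 64.2 and 60.9 CPM with DMSO and 34.4, 38.2 and 37.2 CPM with decitabine in Loucy (log2 -0.73, SE 0.17, adjusted p = 0.00376), with no overlap in either. The differences between the lines were 1.70 for PLK1, 1.58 for CCNB1 and 1.33 for CKS2 (adjusted p = 0.000309, 0.000200 and 0.000962). CCNB2, the other B-type cyclin, and CDC25B, a phosphatase that activates CDK1, also rose in TALL-1 (0.87 and 0.98). CCNA2, cyclin A2, fell in Loucy (log2 -0.65, SE 0.16, adjusted p = 0.00582). CDK1 itself had a log2 change of 0.13 in TALL-1 and -0.21 in Loucy, and CDC25C, CDCA3 and FOXM1 were not called in either line. The call of CKS2 in TALL-1 was lost without DMSO replicate 2 (log2 0.38) and without decitabine replicate 1, 2 or 3 (0.58, 0.60 and 0.62).

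**Figure D4:**
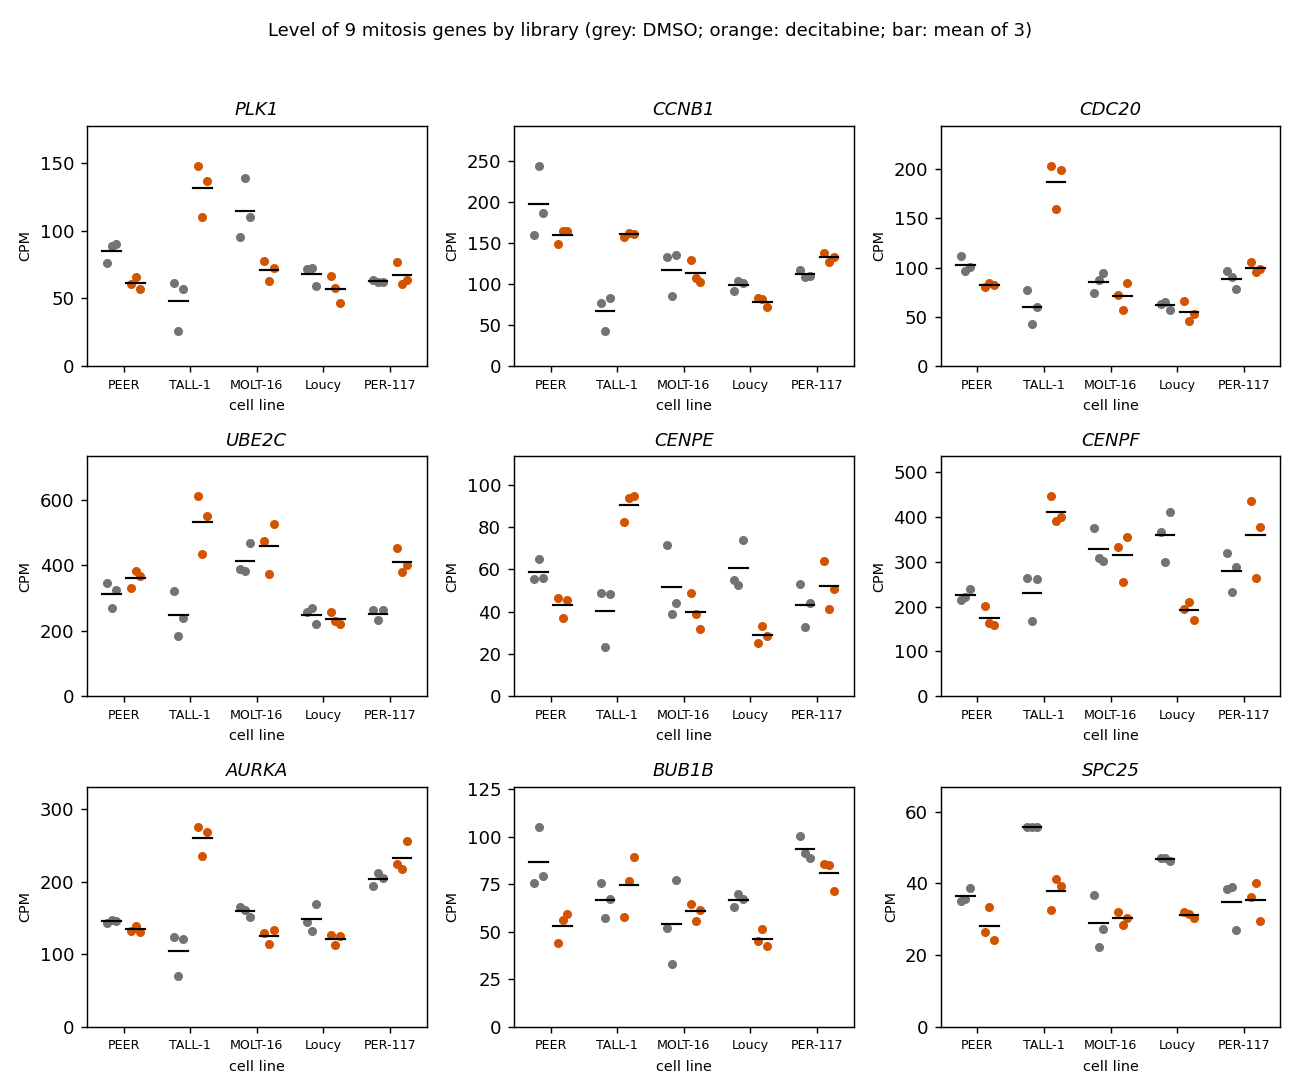
Level (CPM, vertical axis of each panel, from 0) of 9 of the genes in every library by cell line (horizontal axis), grey for DMSO and orange for decitabine, with a bar at the mean of 3 libraries. PLK1, CCNB1, CDC20, UBE2C, CENPE, CENPF and AURKA lay without overlap above the controls in TALL-1, SPC25 lay below them in TALL-1 and Loucy, and BUB1B overlapped in TALL-1 and lay below the controls in PEER and Loucy.

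Of 5 genes of the spindle checkpoint, 0 were called in TALL-1 and 0 in Loucy, by edgeR and by DESeq2. At an unadjusted p under 0.05 these counts were 1 and 4, beside 4032 and 4162 of all 15081 genes tested. Other fits called some of the 5 checkpoint genes in Loucy. Without the 3 mixed DMSO libraries of other lines BUB1, BUB1B and MAD2L1 fell there (log2 -0.51, -0.54 and -0.44), and BUB1B fell also with the replicate block, with no filter on low counts and in a fit of the Loucy libraries alone (edgeR, adjusted p = 0.0375, 0.0374 and 0.00387). TTK stood at 93.6, 68.6 and 78.2 CPM with DMSO and 105, 102 and 102 CPM with decitabine in TALL-1 and was higher in every treated library (log2 0.36, SE 0.17, adjusted p = 0.161). The Loucy libraries held TTK at 38.4, 54.8 and 41.0 CPM with DMSO and 36.5, 34.3 and 32.8 CPM with decitabine, lower in every treated library (log2 -0.37, SE 0.16, adjusted p = 0.129). The difference between the lines was called (log2 0.73, SE 0.23, adjusted p = 0.0487), a call lost in 9 of the 12 fits with 1 library left out, in which the difference was 0.57 to 0.76. It was lost too with DESeq2 size factors, on total counts, with no filter and on unstranded counts (adjusted p = 0.0569, 0.0734, 0.107 and 0.0504). Those 9 were the fits without TALL-1 DMSO replicates 2 and 3, the 3 TALL-1 decitabine replicates, Loucy DMSO replicate 2 and the 3 Loucy decitabine replicates. BUB1B, the checkpoint protein BubR1, stood at 75.5, 57.3 and 67.0 CPM with DMSO and 57.5, 76.6 and 89.5 CPM with decitabine in TALL-1, with overlap, and at 63.0, 69.8 and 67.4 CPM with DMSO and 45.2, 51.2 and 42.5 CPM with decitabine in Loucy, without. Its log2 change was 0.15 in TALL-1 and -0.53 in Loucy (adjusted p = 0.675 and 0.0640). Its locus shares 3709 bases of the same strand with the readthrough gene BUB1B-PAK6, so its count is uncertain to that extent. MAD2L1, which binds CDC20 to block the anaphase-promoting complex, stood at 164, 142 and 174 CPM with DMSO and 153, 170.2 and 161 CPM with decitabine in TALL-1 (log2 0.01), with overlap. In Loucy MAD2L1 stood at 71.3, 97.5 and 77.5 CPM with DMSO and 67.8, 60.3 and 55.2 CPM with decitabine, lower in every treated library (log2 -0.42, SE 0.18, adjusted p = 0.113). BUB3, which carries the BUB kinases to the kinetochore, had a log2 change of -0.20 in both lines and BUB1, a checkpoint kinase, of -0.07 in TALL-1 and -0.50 in Loucy, none called.

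Of 4 genes that trigger anaphase, 3 rose in TALL-1 and 0 passed in Loucy by edgeR and by DESeq2. In Loucy 1 of the 4 had an unadjusted p under 0.05, beside 4162 of all 15081 genes tested. CDC20 (chromosome 1, 43358955 to 43363203, + strand), the activator of the anaphase-promoting complex, had the largest change of the 50 genes in TALL-1. It stood at 77.0, 42.8 and 60.2 CPM with DMSO and 203, 159.5 and 199.6 CPM with decitabine there (log2 1.64, SE 0.17, adjusted p = 1.72e-07), each treated library above the highest control. In Loucy CDC20 stood at 62.8, 65.0 and 57.0 CPM with DMSO and 65.7, 45.4 and 52.5 CPM with decitabine, with overlap (log2 -0.18, SE 0.16, adjusted p = 0.532). PTTG1, securin, the inhibitor of separase, stood at 229, 108 and 224 CPM with DMSO and 440.3, 351 and 366 CPM with decitabine in TALL-1 (log2 1.04, SE 0.20, adjusted p = 0.000572), without overlap, though retrocopies of this gene may share reads with it. In Loucy PTTG1 stood at 106, 142 and 117 CPM with DMSO and 92.2, 87.1 and 92.9 CPM with decitabine, lower in every treated library (log2 -0.42, SE 0.19, adjusted p = 0.150). UBE2C (chromosome 20, 45812576 to 45816957, + strand), the ubiquitin-conjugating enzyme of the complex, stood at 320.4, 183 and 239 CPM with DMSO and 610.2, 434 and 551 CPM with decitabine in TALL-1 (log2 1.10, SE 0.17, adjusted p = 3.86e-05), without overlap. In Loucy its groups overlapped, at 258, 269.8 and 221 CPM with DMSO and 257, 229 and 221 CPM with decitabine (log2 -0.08). The differences between the lines were 1.81 for CDC20, 1.46 for PTTG1 and 1.18 for UBE2C (adjusted p = 1.38e-05, 0.00116 and 0.00160). ESPL1, separase, which cleaves cohesin, had a log2 change of -0.22 in TALL-1 and -0.27 in Loucy and was not called.

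Of 9 genes of the kinetochore and centromere, 5 rose and 1 fell in TALL-1, and 4 fell in Loucy. CENPE (chromosome 4, 103105806 to 103198409, - strand), a kinetochore motor that brings chromosomes to the spindle equator, had the largest difference of the 50 genes between the lines. In TALL-1 it stood at 48.9, 23.1 and 48.2 CPM with DMSO and 82.5, 93.8 and 94.4 CPM with decitabine (log2 1.16, SE 0.24, adjusted p = 0.00149). In Loucy it stood at 54.9, 52.4 and 74.0 CPM with DMSO and 25.1, 33.4 and 28.3 CPM with decitabine (log2 -1.06, SE 0.23, adjusted p = 0.00168). Its groups did not overlap in either line, and the difference of the changes was 2.22 (SE 0.34, adjusted p = 8.74e-05). CENPF (chromosome 1, 214603195 to 214664588, + strand), a large protein of the outer kinetochore, stood at 263, 169 and 262 CPM with DMSO and 447, 391 and 399 CPM with decitabine in TALL-1 (log2 0.83, SE 0.18, adjusted p = 0.00219). In Loucy CENPF stood at 367, 301 and 412 CPM with DMSO and 195, 209.9 and 171 CPM with decitabine (log2 -0.91, SE 0.18, adjusted p = 0.000568), again without overlap in either line and with a difference of 1.74. CENPA, the histone H3 variant that marks centromeres, stood at 38.8, 11.8 and 26.5 CPM with DMSO and 45.3, 67.6 and 84.9 CPM with decitabine in TALL-1, every treated library above the controls (log2 1.34, SE 0.30, adjusted p = 0.00344). In Loucy it stood at 56.0, 57.2 and 43.7 CPM with DMSO and 43.4, 49.0 and 44.3 CPM with decitabine, with overlap (log2 -0.20), and its locus shares 16943 bases of the same strand with SLC35F6, so its count is uncertain to that extent. The CENPA difference of 1.54 lost its call without TALL-1 decitabine replicate 3 (1.33) and without Loucy decitabine replicate 1 (1.46).

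SPC25, a subunit of the NDC80 complex that grips microtubules, did not follow the others in TALL-1. It stood there at 55.8, 55.6 and 55.7 CPM with DMSO and 32.7, 41.2 and 39.4 CPM with decitabine, with every treated library below the controls (log2 -0.56, SE 0.16, adjusted p = 0.0211). In Loucy it stood at 47.0, 47.2 and 46.2 CPM with DMSO and 31.9, 31.4 and 30.4 CPM with decitabine (log2 -0.58, SE 0.15, adjusted p = 0.00865), also lower without overlap, and the responses differed by 0.02. The fall in TALL-1 was not called without DMSO replicate 1, without DMSO replicate 3 or without decitabine replicate 1 (-0.56, -0.56 and -0.47). Its partners in the complex, NDC80 and NUF2, had log2 changes of 0.18 and 0.69 in TALL-1, of which that of NUF2 was called (adjusted p = 0.00830), and by -0.40 and -0.38 in Loucy, neither called. SGO2, a shugoshin that protects centromeric cohesion, rose in TALL-1 (0.81, adjusted p = 0.0132) and fell in Loucy (-0.65, adjusted p = 0.0352). In TALL-1 neither NUF2 nor SGO2 was called without DMSO replicate 2 (0.50 and 0.57), and in Loucy SGO2 was not called without any 1 library but DMSO replicate 2 (-0.70 to -0.57). SGO1, the other shugoshin, and HJURP, the chaperone that loads CENPA, were not called in either line.

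Of 4 genes of the chromosomal passenger complex and chromosome structure, 2 rose in TALL-1 and 1 fell in Loucy. CDCA8, borealin of the passenger complex, stood at 151, 99.9 and 114 CPM with DMSO and 192, 183 and 178 CPM with decitabine in TALL-1 (log2 0.60, SE 0.16, adjusted p = 0.0134). Loucy held CDCA8 at 181, 169 and 195 CPM with DMSO and 121, 121 and 115 CPM with decitabine (log2 -0.61, SE 0.16, adjusted p = 0.00804), and the groups did not overlap in either line. BIRC5, survivin of the same complex, stood at 264, 176 and 287 CPM with DMSO and 369, 312 and 341 CPM with decitabine in TALL-1 (log2 0.49, SE 0.14, adjusted p = 0.0240), without overlap. In Loucy BIRC5 stood at 185, 186 and 201 CPM with DMSO and 167, 143 and 142 CPM with decitabine, lower in every treated library (log2 -0.34, SE 0.14, adjusted p = 0.120). TOP2A, topoisomerase II alpha, which untangles chromosomes, stood at 2019, 1183 and 1877 CPM with DMSO and 2353, 2118 and 2142 CPM with decitabine in TALL-1 (log2 0.38, SE 0.16, adjusted p = 0.115) and at 1948, 1722 and 1746 CPM with DMSO and 1121, 1488 and 1500.1 CPM with decitabine in Loucy (log2 -0.40, SE 0.16, adjusted p = 0.0906), without overlap in both. The responses differed by 1.22 for CDCA8, 0.82 for BIRC5 and 0.78 for TOP2A, all called. AURKB, the kinase of the complex, had a log2 change of 0.36 in TALL-1 and -0.35 in Loucy and was not called. In TALL-1 the calls of CDCA8 and BIRC5 were lost without DMSO replicate 2 (log2 0.48 and 0.30) and without decitabine replicate 1 (0.57 and 0.42), that of CDCA8 also without DMSO replicate 3 (0.56) and that of BIRC5 also without decitabine replicate 3 (0.49). The BIRC5 difference was not called without Loucy decitabine replicate 3 (0.75), nor the TOP2A difference without TALL-1 DMSO replicate 2, TALL-1 decitabine replicate 1, Loucy DMSO replicate 1 or Loucy decitabine replicate 1 (0.58 to 0.73).

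Of 11 spindle genes, 6 rose in TALL-1 and 5 fell in Loucy. AURKA (chromosome 20, 56369389 to 56392337, - strand), the kinase of the spindle poles, stood at 124, 69.9 and 120.5 CPM with DMSO and 276, 236 and 268 CPM with decitabine in TALL-1, each treated library above the highest control (log2 1.31, SE 0.15, adjusted p = 5.59e-07). In Loucy AURKA stood at 145, 132 and 169 CPM with DMSO and 127, 113 and 125 CPM with decitabine, lower in every treated library and not called (log2 -0.29, SE 0.14, adjusted p = 0.186). DLGAP5, which stabilises spindle microtubules, stood at 60.3, 21.6 and 49.6 CPM with DMSO and 84.8, 76.6 and 81.4 CPM with decitabine in TALL-1 (log2 0.88, SE 0.23, adjusted p = 0.0122) and at 57.8, 67.6 and 48.8 CPM with DMSO and 33.9, 37.9 and 38.0 CPM with decitabine in Loucy (log2 -0.67, SE 0.22, adjusted p = 0.0413), without overlap in either. ASPM, a spindle pole protein, stood at 93.6, 50.4 and 93.1 CPM with DMSO and 152, 157 and 156 CPM with decitabine in TALL-1 (log2 0.97, SE 0.18, adjusted p = 0.000467). Loucy held ASPM at 122, 104 and 126 CPM with DMSO and 76.2, 88.5 and 73.8 CPM with decitabine (log2 -0.56, SE 0.17, adjusted p = 0.0277), and again the groups did not overlap in either line. The differences were 1.60, 1.54 and 1.52, all called. HMMR, PSRC1 and TPX2, which bind spindle microtubules, rose in TALL-1 (0.92, 1.24 and 0.54). KIF11, the motor that pushes spindle poles apart, NUSAP1 and GTSE1 fell in Loucy (-0.62, -0.45 and -0.49). KIF2C and NEK2 were not called in either line. The DLGAP5 call in TALL-1 was lost without DMSO replicate 2 (log2 0.55), and in Loucy without any 1 of the libraries but DMSO replicate 3 (-0.69 to -0.55). The ASPM call in Loucy was lost without DMSO replicate 1 or 3 or decitabine replicate 1 or 3 (-0.54 to -0.50). In TALL-1 HMMR was not called without DMSO replicate 2 (0.62) or decitabine replicate 2 (0.85), nor TPX2 without DMSO replicate 2, decitabine replicate 1 or decitabine replicate 3 (0.38, 0.39 and 0.54). In Loucy KIF11 was not called without DMSO replicate 2, decitabine replicate 1 or decitabine replicate 3 (-0.59 to -0.50), NUSAP1 not without DMSO replicate 3, decitabine replicate 1 or decitabine replicate 2 (-0.44 to -0.35), and GTSE1 not without DMSO replicate 3, decitabine replicate 1 or decitabine replicate 3 (-0.46 to -0.42).

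Of 7 genes of the central spindle and cytokinesis, 1 rose in TALL-1 and 3 fell in Loucy. KIF20A, the motor that carries the passenger complex to the midzone, stood at 24.3, 10.1 and 22.7 CPM with DMSO and 35.9, 39.4 and 31.0 CPM with decitabine in TALL-1 (log2 0.89, SE 0.28, adjusted p = 0.0357), without overlap. In Loucy KIF20A stood at 65.3, 59.5 and 50.2 CPM with DMSO and 54.7, 44.1 and 47.2 CPM with decitabine, with overlap (log2 -0.26). KIF23, a motor of centralspindlin, stood at 26.4, 12.5 and 27.4 CPM with DMSO and 30.8, 40.0 and 34.8 CPM with decitabine in TALL-1 (log2 0.66, SE 0.28, adjusted p = 0.121) and at 33.8, 33.2 and 35.6 CPM with DMSO and 23.6, 24.2 and 22.2 CPM with decitabine in Loucy (log2 -0.55, SE 0.26, adjusted p = 0.155). Neither change was called, though the groups did not overlap in either line. ECT2, which activates RhoA at the cleavage furrow, stood at 43.6, 29.0 and 46.0 CPM with DMSO and 50.4, 63.6 and 57.7 CPM with decitabine in TALL-1 (log2 0.53, SE 0.23, adjusted p = 0.130) and at 45.6, 43.5 and 48.6 CPM with DMSO and 32.4, 30.1 and 23.3 CPM with decitabine in Loucy (log2 -0.68, SE 0.22, adjusted p = 0.0324). KIF4A (chromosome X, 70290090 to 70420832, + strand), a chromosome-bound motor that shapes the midzone, stood at 117, 76.7 and 95.2 CPM with DMSO and 135, 119 and 128 CPM with decitabine in TALL-1 (log2 0.40, SE 0.14, adjusted p = 0.0614). That change was not called by the edgeR fit of all libraries, and was called by the DESeq2 test, on total counts, with the replicate block and without TALL-1 DMSO replicate 1 (adjusted p = 0.0343, 0.0358, 0.0303 and 0.0194). The Loucy libraries held KIF4A at 104, 102 and 127 CPM with DMSO and 74.3, 77.2 and 81.9 CPM with decitabine (log2 -0.51, SE 0.14, adjusted p = 0.0110), without overlap. The responses differed by 1.21 for KIF23, 1.21 for ECT2 and 0.91 for KIF4A, all called, and by 1.16 for KIF20A (adjusted p = 0.0556), which was not. The KIF20A difference was called by the DESeq2 test, with no filter, with the replicate block, without the mixed libraries, in a fit of these 2 lines alone and without TALL-1 DMSO replicate 1 (1.12 to 1.35, adjusted p from 0.00219 to 0.0451). KIF14, a motor of late cytokinesis, fell in Loucy (-0.62), a call lost without DMSO replicate 3, decitabine replicate 1 or decitabine replicate 3 (-0.59 to -0.51). PRC1, which bundles midzone microtubules, and ANLN were not called in either line. The KIF20A call in TALL-1 was lost without DMSO replicate 2 (0.60) and without each decitabine replicate (0.81 to 0.97), and the ECT2 call in Loucy without any 1 of its 6 libraries (-0.77 to -0.55). The KIF4A call in Loucy was lost without DMSO replicate 3 (-0.42) and without decitabine replicate 1 (-0.47). The KIF23 difference was not called in 10 of the 12 fits with 1 library left out (0.94 to 1.30), all but those without TALL-1 DMSO replicate 1 or 3, and the ECT2 difference was not called without Loucy decitabine replicate 3 (1.05).

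Of the 23 genes called in TALL-1, 13 were called whichever 1 of its 6 libraries was left out. They were CCNB1, CCNB2, CDC25B, PLK1, CDC20, UBE2C, PTTG1, CENPA, CENPE, CENPF, AURKA, ASPM and PSRC1. Of the 15 called in Loucy, 6 were called in every such fit: CCNA2, CKS2, CENPE, CENPF, SPC25 and CDCA8. Of the 31 differences between these lines, 18 were called in all 12 such fits. A call in 1 line and not in the other is no test of a difference, which the test of the responses gives.

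In PEER 2 of the 50 genes fell, and most of the others had changes below 0 that did not pass. The log2 change was below 0 for 47 of the 50 genes, with a median of -0.36, against -0.02 over all genes, and in 30 genes all treated libraries lay below all controls (11.2% of all genes tested) and in 0 above them (12.5%). By edgeR 2 fell (0.961% of all genes) and 0 rose (3.54%), and by DESeq2 also 2 and 0, with 19 lower and 0 higher at an unadjusted p under 0.05. Such an unadjusted p was reached by 2766 of all 15081 genes in either direction. BUB1B stood at 75.4, 105 and 79.1 CPM with DMSO and 43.9, 56.2 and 59.1 CPM with decitabine (log2 -0.72, SE 0.20, adjusted p = 0.0356), and KIF4A at 104, 121 and 112 CPM with DMSO and 83.9, 74.1 and 82.9 CPM with decitabine (log2 -0.49, SE 0.14, adjusted p = 0.0476). Both were lower in every treated library. Both calls were lost when PEER DMSO replicate 2, which held transcripts restricted to MOLT-16, was left out (log2 -0.56 and -0.44). The BUB1B call was also lost without DMSO replicate 3 and without each decitabine replicate, and the KIF4A call without any other library (-0.77 and -0.48 without DMSO replicate 3). Without all 3 mixed DMSO libraries, 3 other genes fell, BIRC5, TOP2A and DLGAP5 (-0.48, -0.60 and -0.79), beside 141 falls among 15741 genes tested. TOP2A stood at 1625, 1317 and 1721 CPM with DMSO and 1183, 1027 and 1051 CPM with decitabine. The largest change was that of CENPA, at 44.7, 97.7 and 47.9 CPM with DMSO and 24.3, 35.8 and 45.1 CPM with decitabine (log2 -0.89, adjusted p = 0.0884), where DMSO replicate 2 lay highest.

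In MOLT-16 changes lay on both sides of 0 and did not pass. By edgeR 0 rose (2.19% of all genes tested) and 0 fell (1.01%), with 2 higher and 6 lower at an unadjusted p under 0.05, and by DESeq2 0 rose and 1 fell. Such an unadjusted p was reached by 2964 of all 15081 genes in either direction. The median log2 change was -0.10, against -0.01 over all genes, and 31 of 50 lay below 0. That median was -0.26 without DMSO replicate 2, -0.01 without DMSO replicate 1, -0.01 without decitabine replicate 2 and -0.21 without decitabine replicate 1. DMSO replicate 2 was the lowest of the 3 controls for 33 of the 50 genes, a count not made over all genes. Treated libraries lay below the controls without overlap for PLK1, BUB3, PTTG1, AURKB, AURKA and TPX2 (7.33% of all genes) and above them for CENPA (9.18%). PLK1 stood at 95.0, 139 and 110.0 CPM with DMSO and 77.4, 63.1 and 72.2 CPM with decitabine (log2 -0.68, SE 0.21, adjusted p = 0.0626). Without MOLT-16 DMSO replicate 3, which held transcripts restricted to PEER, 2 rose and 3 fell, beside 1139 rises and 850 falls over all genes. Without all 3 mixed DMSO libraries 3 rose and 3 fell, beside 1539 rises and 1249 falls among 15741 genes tested. The 6 genes called without all 3 were ANLN (1.25), KIF20A (0.96) and ESPL1 (0.84), which rose, and PLK1 (-0.74), AURKB (-0.63) and CDC25B (-0.54), which fell. ANLN, anillin of the contractile ring, stood at 17.6, 8.34 and 29.2 CPM with DMSO and 31.9, 27.9 and 36.3 CPM with decitabine and KIF20A at 20.7, 11.0 and 37.5 CPM with DMSO and 38.0, 19.6 and 35.5 CPM with decitabine. DMSO replicate 3 was the highest control for both.

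In PER-117 1 of the 50 genes rose. UBE2C stood at 263, 232 and 263 CPM with DMSO and 453, 378 and 400.0 CPM with decitabine and rose without overlap (log2 0.70, SE 0.16, adjusted p = 0.00399), a call kept whichever 1 of the 6 libraries was left out. By edgeR it was the 1 gene that rose (8.67% of all genes tested) and 0 fell (3.16%), with 5 higher and 0 lower at an unadjusted p under 0.05 and 1 and 0 by DESeq2. Such an unadjusted p was reached by 3628 of all 15081 genes in either direction. The median log2 change was 0.17, against 0.05 over all genes, and 41 of 50 lay above 0. Treated libraries lay above the controls in 15 genes (21.6% of all genes) and below them in CCNA2, BUB1B and BIRC5 (14.7%). Without the 3 mixed DMSO libraries of other lines, HJURP (0.38) and HMMR (0.60) also rose, beside 1877 rises among 15741 genes tested. With DMSO and decitabine CENPA stood at 56.9, 54.6 and 48.3 CPM and 75.5, 84.6 and 65.4 CPM, without overlap, and PLK1 at 63.6, 61.8 and 61.9 CPM and 77.1, 60.7 and 63.4 CPM, with overlap.

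The response of these genes depended on the line. It differed among the 5 lines in 30 of the 50 genes, against 13.6% of all genes tested. TALL-1 and Loucy are among these lines, and the set was chosen with their opposite directions known. This count is therefore not independent evidence. With lines as the replicates, in a fit of 5 pairs of summed counts, 0 rose (0.0578% of 13830 genes) and 0 fell (0% of them) by edgeR. At an unadjusted p under 0.05, 1 was higher and 1 lower, beside 2319 of the 13830 genes in either direction. Among the 50 genes the smallest adjusted p was 0.276, and the median log2 change was -0.05, within -0.32 to 0.39.

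Other genes of mitosis in TALL-1 went in both directions. Of 94 tested genes of a further list of mitosis genes, 13 rose and 13 fell (13.8% each way, against 6.74% and 6.12% of all genes tested), with a median of 0.02. Of 19 spindle genes in it 7 rose and 0 fell by edgeR, and of 6 genes of the central spindle and cytokinesis 2 rose. Of 25 kinetochore and centromere genes 6 fell and 0 rose, and of 14 condensin and cohesin genes 3 fell. CDKN3, a phosphatase that acts on cyclin-dependent kinases, rose from 90.5 to 211 CPM (log2 1.22, adjusted p = 4.30e-06), and DEPDC1 from 36.1 to 78.7 CPM (log2 1.11, adjusted p = 0.000462). CENPM and CENPU, of the constitutive centromere network, fell from 110.0 to 45.1 CPM (log2 -1.27, adjusted p = 4.29e-06) and from 72.3 to 33.6 CPM (log2 -1.10, adjusted p = 7.63e-05). Without TALL-1 DMSO replicate 2 the list gave 8 rises and 11 falls, and without DMSO replicate 3 it gave 12 and 8. In Loucy 0 rose by edgeR and by DESeq2 and 15 of the 94 fell (4.13% of all genes), with a median of -0.29, led by KIF15, a spindle motor, from 66.0 to 36.9 CPM (log2 -0.84, adjusted p = 0.000248), KIF20B from 74.2 to 43.5 CPM (log2 -0.77, adjusted p = 0.00151), CENPT from 9.57 to 5.76 CPM (log2 -0.73, adjusted p = 0.0327) and CENPW from 87.2 to 53.3 CPM (log2 -0.71, adjusted p = 0.00383). The CENPT call was lost without any 1 of the Loucy libraries but DMSO replicate 2 (log2 -0.54 without DMSO replicate 3). The count in Loucy was 7 without DMSO replicate 3, 5 without decitabine replicate 1, 9 without decitabine replicate 3, 6 on total counts and 31 without the 3 mixed DMSO libraries of other lines. The response differed between TALL-1 and Loucy in 20 of these genes with the higher change in TALL-1 (21.3%, against 3.46% of all genes tested). It differed in 2 with the lower (2.13%, against 4.71%).

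In the other 3 lines the called genes of this list were 0 rises and 2 falls in PEER, 0 and 4 in MOLT-16 and 1 and 2 in PER-117, by edgeR. The falls were 2.13%, 4.26% and 2.13% of the list, against 0.961%, 1.01% and 3.16% of all genes tested, and the 1 rise was 1.06%, against 8.67% of all genes in PER-117. In PEER the falls were SPC24, the partner of SPC25, from 72.7 to 48.1 CPM (log2 -0.59, adjusted p = 0.0127), and NCAPH, a condensin subunit, from 63.1 to 40.3 CPM (log2 -0.65, adjusted p = 0.0420). The NCAPH call was lost without any 1 PEER library but DMSO replicate 1 (-0.72 to -0.37, the last without DMSO replicate 2), and SPC24 at -0.53 and not called without decitabine replicate 3. In MOLT-16 4 fell. MAD1L1, which recruits MAD2L1 to kinetochores, went from 68.8 to 13.0 CPM (log2 -2.46, adjusted p = 0.0127), which was -0.88 and not called without DMSO replicate 3, -0.88 and called without all 3 mixed libraries (adjusted p = 0.0119), -1.83 and called with the replicate block, and not called either without decitabine replicate 1 (-2.40) or decitabine replicate 3 (-2.34). RAD21, a cohesin subunit, went from 1015 to 655 CPM (log2 -0.63, adjusted p = 0.0155), PKMYT1, an inhibitory kinase of CDK1, from 152 to 104 CPM (log2 -0.54, adjusted p = 0.0474), and KIF22 from 176 to 123 CPM (log2 -0.52, adjusted p = 0.0436). RAD21 lost its call without DMSO replicate 1 (-0.48) or decitabine replicate 3 (-0.49), and PKMYT1 and KIF22 without any 1 library but DMSO replicate 3 (-0.64 to -0.40 and -0.53 to -0.40). In a fit of the MOLT-16 libraries alone none of these 4 was called (adjusted p = 0.314 to 0.414). Without the 3 mixed DMSO libraries the list gave 14 rises and 7 falls there, beside 1539 and 1249 among 15741 genes tested. In PER-117 CKAP2, a spindle protein, rose from 72.8 to 102 CPM (log2 0.49, adjusted p = 0.00353), and ANAPC5 and PKMYT1 fell, from 214 to 145 CPM (log2 -0.57, adjusted p = 0.000391) and 76.8 to 55.9 CPM (log2 -0.46, adjusted p = 0.0417). Of these 3, PKMYT1 lost its call without any 1 of the PER-117 libraries (log2 -0.51 to -0.43).

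Genes of the G1/S transition and DNA replication, which act earlier in the cycle, fell in TALL-1, where 22 of the 50 genes of mitosis rose. Of 61 such genes 50 fell and 0 rose by edgeR (51 and 0 by DESeq2), with a median log2 change of -1.04. The falls were 82.0% of the list, against 6.12% of all genes tested, of which 6.74% rose. MCM6, a subunit of the MCM helicase, fell from 200.4 to 59.0 CPM (log2 -1.76, adjusted p = 1.40e-06), CDC45, which activates that helicase, from 98.7 to 29.9 CPM (log2 -1.71, adjusted p = 1.76e-07), and CCNE2, cyclin E2, from 28.5 to 8.85 CPM (log2 -1.64, adjusted p = 0.00144). PCNA, the sliding clamp of the replicative polymerases, fell from 845 to 297 CPM (log2 -1.51, adjusted p = 8.91e-05). Without TALL-1 DMSO replicate 2 there were 45 falls, and without the 3 mixed DMSO libraries 53. In Loucy 6 of the 61 fell (9.84%, against 4.13% of all genes tested) and 0 rose (10.6% of all genes) by edgeR, with a median of -0.23. They were led by DBF4, the activator of the CDC7 kinase, from 60.2 to 33.1 CPM (log2 -0.86, adjusted p = 0.000798), and GINS1 from 107 to 62.0 CPM (log2 -0.79, adjusted p = 0.000735). CLSPN, claspin, and POLA1, a subunit of polymerase alpha, fell by 0.64 and 0.62 on the log2 scale (adjusted p = 0.04996 and 0.00705). The CLSPN call was lost without any 1 Loucy library but decitabine replicate 2 (-0.70 to -0.43) and by the DESeq2 test (adjusted p = 0.0606), and that of POLA1 without DMSO replicate 1 (-0.48) or decitabine replicate 1 (-0.53). The count of 6 was 13 without the 3 mixed DMSO libraries of other lines. In PER-117 3 fell (4.92%, against 3.16% of all genes tested, median -0.16), POLD2, CDC6 and MCM7 (-0.64, -0.49 and -0.41), and 6 fell with the replicate block. There CDC6 lost its call without any 1 library but DMSO replicate 1 or decitabine replicate 2 (-0.47 to -0.43), and MCM7 without any but decitabine replicate 2 (-0.45 to -0.34). Elsewhere, in PEER 0 passed by edgeR and 2 fell by DESeq2 (11 of 61 at an unadjusted p under 0.05, median -0.19), and in MOLT-16 0 passed by either tool (2 of 61, median -0.01). Such an unadjusted p was reached by 2766 of all 15081 genes in PEER and 2964 in MOLT-16. The response differed between TALL-1 and Loucy in 29 of the 61 genes with the lower change in TALL-1 (47.5%, against 4.71% of all genes tested). It differed in 1 with the higher (1.64%, against 3.46%).

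**Figure D5:**
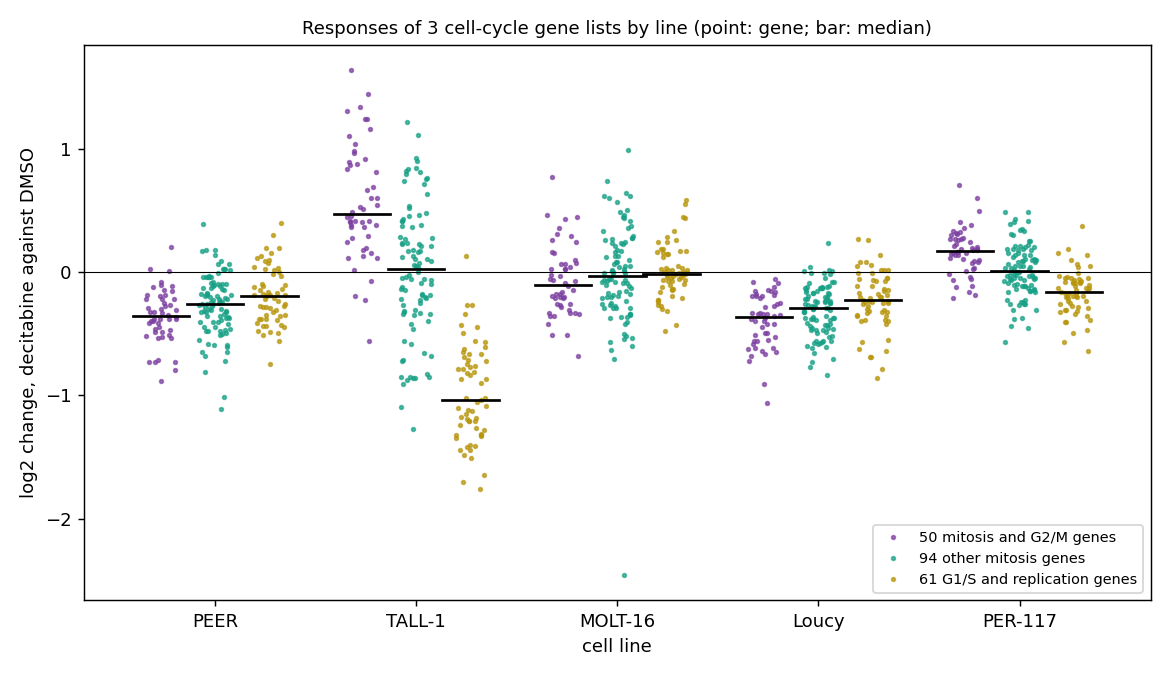
Log2 change with decitabine (vertical axis) of every tested gene of 3 lists by cell line (horizontal axis), purple for the 50 mitosis and G2/M genes, green for 94 other mitosis genes and yellow for 61 genes of G1/S and replication, with a bar at each median. In TALL-1 the medians were 0.47, 0.02 and -1.04, and in Loucy -0.36, -0.29 and -0.23.

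Among 30 tested regulators of these genes, 1 rose and 7 fell in TALL-1 (3.33% and 23.3%, against 6.74% and 6.12% of all genes tested). CDKN1B, the inhibitor p27 of cyclin-dependent kinases, rose from 118 to 228 CPM (log2 0.95, adjusted p = 1.85e-05), and E2F1 and E2F2, activators of S-phase genes, fell from 144 to 43.2 CPM (log2 -1.72, adjusted p = 8.22e-08) and 226 to 100.3 CPM (log2 -1.17, adjusted p = 1.70e-07). E2F8, an atypical E2F that represses them, fell from 9.50 to 3.16 CPM (log2 -1.54, adjusted p = 0.0240), a call lost without TALL-1 DMSO replicate 1 or 3 or decitabine replicate 1 or 3 (log2 -1.51 to -1.30). CDKN1A, the inhibitor p21 of cyclin-dependent kinases, rose in PEER, MOLT-16 and PER-117, by 1.98, 4.37 and 2.23 (adjusted p = 0.00378, 4.30e-06 and 1.76e-05). In PEER it stood at 2.05, 7.82 and 2.07 CPM with DMSO and 13.1, 16.1 and 18.4 CPM with decitabine, and its change was 2.90 without DMSO replicate 2. In MOLT-16 it stood at 1.02, 0.893 and 2.13 CPM with DMSO and 29.0, 19.1 and 39.9 CPM with decitabine and in PER-117 at 15.1, 12.2 and 12.2 CPM with DMSO and 61.6, 55.0 and 68.3 CPM with decitabine, without overlap in any of the 3 lines. In Loucy it stood at 11.2, 10.6 and 14.2 CPM with DMSO and 21.7, 22.1 and 20.4 CPM with decitabine, higher in every treated library and not called (0.84, adjusted p = 0.0708), a change called without the 3 mixed DMSO libraries of other lines (0.83, adjusted p = 0.00221). In TALL-1 it stood at 1.29, 0 and 3.40 CPM with DMSO and 1.15, 0.449 and 1.91 CPM with decitabine, with overlap and near 0 in all 6 libraries. CDKN1C, the inhibitor p57, rose in Loucy from 0.495 to 15.4 CPM (log2 4.92, adjusted p = 1.62e-08), in PER-117 from 3.37 to 34.1 CPM (log2 3.33, adjusted p = 5.04e-07), in MOLT-16 from 8.82 to 64.4 CPM (log2 2.93, adjusted p = 2.80e-05) and in PEER from 0.689 to 6.30 CPM (log2 3.16, adjusted p = 0.00279). In PEER CDKN1C stood at 0.157, 1.91 and 0 CPM with DMSO and 5.44, 6.48 and 6.99 CPM with decitabine, so that DMSO replicate 2 held most of the control reads. Its fitted change was 5.87 without that library, a value that rests on controls at 0.157 and 0 CPM, and in a fit of the PEER libraries alone the change was not called (3.18, adjusted p = 0.0671). That fit did not call CDKN1A in PEER either (2.00, adjusted p = 0.0661).

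MDM2, a ubiquitin ligase, rose in MOLT-16 from 107 to 207 CPM (log2 0.95, adjusted p = 0.000218) and in PER-117 from 83.4 to 160.0 CPM (log2 0.94, adjusted p = 3.86e-05). The MOLT-16 rise was not called in a fit of the MOLT-16 libraries alone (0.97, adjusted p = 0.103). MYBL2, the B-MYB partner of MuvB, was not called in any line, with log2 changes of 0.18 in PEER, -0.67 in TALL-1, -0.27 in MOLT-16, -0.11 in Loucy and -0.44 in PER-117. In TALL-1 it stood at 319.8, 367 and 251 CPM with DMSO and 237, 159 and 192 CPM with decitabine, lower in every treated library, and its fall was called without the 3 mixed DMSO libraries (-0.81). FOXM1, a transcription factor of G2/M genes that is itself among the 50, had log2 changes of -0.29, 0.12, -0.03, -0.34 and -0.11 in the same order and was not called in any line. In TALL-1 FOXM1 stood at 59.2, 35.2 and 43.7 CPM with DMSO and 48.3, 40.1 and 63.5 CPM with decitabine, with overlap, beside the rises of CDC20 and PLK1 in the same libraries. Of the other regulators called, TFDP2, a dimerisation partner of E2F factors, fell in PEER from 369 to 249 CPM (log2 -0.57, adjusted p = 0.00229) and in Loucy from 416 to 265 CPM (log2 -0.65, adjusted p = 7.79e-05). E2F3 and RBL1, a pocket protein, fell in Loucy (-0.56 and -0.55), E2F2 in MOLT-16 (-0.46) and E2F5 in PER-117 (-0.77). Those calls were lost without DMSO replicate 1 or decitabine replicate 1 or 3 for E2F3 (-0.50 to -0.42), without DMSO replicate 3 or decitabine replicate 1 or 3 for RBL1 (-0.48 to -0.42), without any 1 MOLT-16 library but DMSO replicate 3 or decitabine replicate 3 for E2F2 (-0.50 to -0.35) and without any 1 PER-117 library but DMSO replicate 3 for E2F5 (-0.77 to -0.62). On total counts E2F3, RBL1 and E2F2 were not called, nor E2F5 on unstranded counts. The counts of regulators that rose and fell were 2 and 1 in PEER (6.67% and 3.33% of the 30), 3 and 1 in MOLT-16 (10.0% and 3.33%), 1 and 3 in Loucy (3.33% and 10.0%) and 3 and 2 in PER-117 (10.0% and 6.67%). The shares of all genes that rose and fell were 3.54% and 0.961% in PEER, 2.19% and 1.01% in MOLT-16, 10.6% and 4.13% in Loucy and 8.67% and 3.16% in PER-117. In MOLT-16 7 regulators rose without DMSO replicate 3, a fit in which 1139 genes rose in all.

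Responses are given here by the promoter letters. Of the 34 genes whose promoter held TTTGAA or TTCGAA, 13 rose and 1 fell in TALL-1 (median 0.43), and 12 fell in Loucy (median -0.41). Of the 9 with a promoter that held neither, 5 rose in TALL-1 (median 0.81) and 3 fell in Loucy (median -0.36). Of the 7 with no promoter on hand, 4 rose in TALL-1 (median 0.49) and 0 fell in Loucy (median -0.29). Over all genes tested 6.74% rose and 6.12% fell in TALL-1, and 4.13% fell in Loucy. The difference between the lines had medians of 0.89, 1.16 and 0.73 in these sets, in that order, with ranges of 0.02 to 1.81, 0.32 to 2.22 and 0.00 to 1.60. CDC20 and PLK1, with the letters TTTGAA shown above, and CENPE, with neither TTTGAA nor TTCGAA, all lay among the largest differences. SPC25 and BUB3 lay at 0.02 and 0.00. Other forms of the CHR were not searched for, so the second set is not a set of promoters without a CHR. These are descriptions, and no test was made of them.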

How the data were processed

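RNA of 30 libraries (5 T-ALL lines, decitabine or DMSO, 3 per group) was made into 3′ mRNA-seq libraries, per the labels' protocols. The authors deposited raw read counts per gene from STAR 2.4.2a on GRCh38, per the submitters' processing notes, which also name DESeq2. The annotation release was not given in the sources used here, and GENCODE 29 gave symbols for 56996 of 60554 identifiers (3558 without). The first-strand count column was used, which held 12.8 to 15.2 times the reads of the other strand. Replicate numbers follow the sample titles, with which the names of the deposited tables exchange PEER DMSO replicates 2 and 3, and no batch is labelled. Same-numbered libraries deviated together in PER-117 (correlations of 0.269, 0.322 and 0.479, each over 0.1) and not throughout in the other lines. Libraries held 2.20 M to 15.4 M gene reads, which limits precision for low genes.

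Counts were scaled by TMM and fitted with edgeR 4.0.16 (R 4.3.3) after a filter at a minimum count of 10. The quasi-likelihood test used all 30 libraries with 10 group means (20 residual degrees of freedom, common dispersion 0.0280), and p-values were adjusted by Benjamini and Hochberg over 15081 genes. A gene is called, and said to rise or fall, at an adjusted p under 0.05. The TALL-1 and Loucy responses were compared in the same fit. A fit with the 5 lines as replicates used counts summed per line and treatment. Genes restricted to 1 line were those at 10 CPM or more there and at 2% or less of it in the other lines. Replicates differed beyond counting noise (chi-square per degree of freedom 2.13 to 45.9 over 30 pairs), so none was counted as a duplicate. The fits were tested on simulated data.

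The 50 genes, the other lists, the roles and the tests were chosen with earlier results of these data known, among them that the genes moved in opposite directions in TALL-1 and Loucy. Values in every library are given for the 3 genes of each of 7 roles with the largest difference between these lines and for genes called elsewhere. Of each other list, the 4 called genes per line with the largest change are named (all where there were fewer), and CDKN1A, MYBL2 and FOXM1 always. A further gene that this rule always names is not reported here. SPC25, ANLN and the PEER and PER-117 values of CENPA were added after their values were seen. Alternatives were DESeq2 1.42.0 as test and as scaling, total counts, no filter, unstranded counts, the replicate block, the libraries of the compared lines alone, the mixed libraries left out and each replicate left out.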

Additional observations from a re-analysis of the deposited data

Results flagged for a closer look

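These results are given because the response to decitabine differed between TALL-1 and Loucy by edgeR's test of the difference itself, with the higher change in TALL-1. This held for 31 of the 50 genes. In the mitotic entry group the log2 differences were 1.70 for PLK1, 1.58 for CCNB1 and 1.33 for CKS2. TTK of the spindle checkpoint differed by 0.73, a call lost in 9 of the 12 fits with 1 library left out and in 4 other alternatives. The anaphase genes CDC20, PTTG1 and UBE2C differed by 1.81, 1.46 and 1.18. The kinetochore genes CENPE, CENPF and CENPA differed by 2.22, 1.74 and 1.54. CDCA8 and BIRC5 of the passenger complex and TOP2A differed by 1.22, 0.82 and 0.78. The spindle genes AURKA, DLGAP5 and ASPM differed by 1.60, 1.54 and 1.52, and KIF23 and ECT2, of the central spindle and cytokinesis, by 1.21 each. The genes were chosen with an opposite direction in these lines known, so the list is a description of where the difference lay.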

How the results depend on the processing

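The counts of called genes among the 50 depended on single libraries and on scaling. With 1 library left out, 13 to 25 rose and 0 to 1 fell in TALL-1, 0 rose and 6 to 12 fell in Loucy, 0 rose and 0 to 1 fell in PEER, 0 to 2 rose and 0 to 3 fell in MOLT-16, 1 rose and 0 fell in PER-117, and 22 to 32 differences between TALL-1 and Loucy were called. With all libraries the rises were 22 in TALL-1, 1 in PER-117 and 0 elsewhere, the falls 1 in TALL-1, 15 in Loucy, 2 in PEER and 0 elsewhere, and the differences 31. On total counts the falls were 0 in PEER, 0 in TALL-1 and 4 in Loucy, and DESeq2 size factors left 0 in PEER. With no filter there were 7 falls in PEER, 0 in TALL-1 and 2 in MOLT-16, and 1 rise in MOLT-16 and 2 in PER-117. Unstranded counts left 1 fall in PEER, and the DESeq2 test gave 1 in MOLT-16. Without the mixed libraries there were 3 rises and 3 falls in MOLT-16 and 3 rises in PER-117. Fits on the compared lines alone gave 27 falls in Loucy, beside 1344 among 14365 genes tested, and 7 rises in PER-117, beside 1707 among 12693. In each case the cause was not tested.

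For all genes, total counts turned 1017 rises and 923 falls in TALL-1 into 1398 and 558, 1595 and 623 in Loucy into 2049 and 274, 534 and 145 in PEER into 637 and 48, and 331 and 152 in MOLT-16 into 353 and 90. Fits on the compared lines alone gave 2162 and 1344 of 14365 genes in Loucy and 1707 and 1390 of 12693 in PER-117. They gave 276 and 30 of 11905 in PEER, and 58 and 1 of 11115 in MOLT-16. Without the mixed libraries, of 15741 genes, 1174 rose and 1022 fell in TALL-1, and 2282 and 1259 in Loucy. These counts were 740 and 141 in PEER, 1539 and 1249 in MOLT-16, and 1877 and 881 in PER-117.

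Same-numbered replicates paired in PER-117, where all 3 correlations were over 0.1 and each library correlated best with its own number. In the other 4 lines at least 1 pair fell short, and over all 15 pairs the correlations ran from -0.397 to 0.479, with 7 over 0.1 and 7 best with their own number. For PEER the pairing uses the numbers of the sample titles. The replicate block gave 6 falls in PEER, 1 in MOLT-16, 17 in Loucy and 1 in TALL-1, 26 rises in TALL-1 and 1 in PER-117, and 33 differences. In PER-117 it changed no call of the 50 genes and moved the falls among replication genes from 3 to 6.

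Of 45 called changes of the described members, 0 changed direction in any alternative. Changes of direction touched genes that were not called. On total counts these were UBE2C, CDC25B and CDC25C in Loucy (0.030, 0.022 and 0.053), BUB1 in TALL-1 (0.027), SGO2 in PEER (0.0034), CCNB2 and FOXM1 in MOLT-16 (0.026 each), CKS2 in PER-117 (0.013), MYBL2 in Loucy (0.012) and the BUB3 difference (-0.0029), with DESeq2 size factors the BUB3 and SPC25 differences (-0.030 and -0.0091), on unstranded counts FOXM1 in MOLT-16 (0.35) and PER-117 (0.91), and without the mixed libraries MYBL2 in PEER (-0.13) and CDKN1A in TALL-1 (0.49). With 1 library left out, the log2 change ran over 0 for MAD2L1 in TALL-1 (-0.071 to 0.078), FOXM1 in TALL-1 (-0.067 to 0.33) and MOLT-16 (-0.10 to 0.0011), MYBL2 in PEER (-0.16 to 0.45) and Loucy (-0.37 to 0.17), and CDKN1A in TALL-1 (-1.30 to 0.50). Depth limits genes at a few CPM, such as CDKN1A in TALL-1.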
